A study of Sus scrofa with 18 samples.

Results

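The comparison described here is 4 h of all-trans retinoic acid (ATRA) against 0 h in LLC-PK1 cells, an epithelial line from the kidney of a male Hampshire pig. Its members were chosen by their titles: the 3 arrays of cells at 4 h and the 3 of cells at 0 h, 6 of the 18 arrays in the series. Cultures in both groups had grown beyond confluence before ATRA, and the titles name the 3 arrays of each time as biological replicates. The cells at 0 h had no exposure to ATRA and the cells at 4 h had 4 h of it, at a dose the labels do not give. The other 12 arrays covered 0.5, 1, 8 and 12 h of ATRA and entered only the estimate of the spread between replicates. No untreated cells at 4 h are among the arrays, so the effect of ATRA and that of 4 more hours in culture cannot be told apart.

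ATRA is the form of vitamin A that acts in the nucleus. It binds the retinoic acid receptors, which sit with retinoid X receptors on DNA and exchange corepressors for coactivators when the ligand arrives. The cell limits the signal by making enzymes that oxidize retinoic acid or return its precursor to retinol. In the kidney, retinoic acid takes part in nephron development and in the response of the tubule to injury. LLC-PK1 cells are widely used as a model of the proximal tubule, the segment that reabsorbs phosphate, glucose and amino acids.

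Each array gave a deposited log2 signal for 27558 probe sets, which ran from 0.882 to 13.86, with array medians of 5.63 to 5.65 over the 6 arrays. One log2 unit is a 2-fold difference in signal. Signals correlated at 0.984 to 0.994 between arrays of the same time and at 0.976 to 0.988 between 0 h and 4 h. One array stood apart: replicate 1 at 4 h differed from the mean of the other arrays of its time by a median of 0.237, against 0.168 and 0.170 for replicates 2 and 3. It lay nearer to 0 h for most large changes. Of 164 genes called at least 2-fold higher, it had the lowest 4 h signal for 143. Of 109 called at least 2-fold lower, it had the highest 4 h signal for 97. The median log2 difference of the 164 genes from the mean at 0 h was 0.93 on replicate 1, 1.35 on replicate 2 and 1.52 on replicate 3.

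At 4 h, 3568 of 27558 probe sets (12.9%) differed from 0 h, 1740 higher and 1828 lower. A difference was called at a Benjamini-Hochberg adjusted p under 0.05 in limma, a linear model with 1 mean per time over the 18 arrays; every adjusted p given here is from that model unless another fit is named. Counted as 12361 genes, each through 1 probe set, 975 were higher (7.89%) and 1055 lower (8.53%), and the median log2 difference of all genes was 0.01. These shares are the background for every list count that follows. They include genes of low signal, which were seldom called. Fitted without probe sets of a mean under 5.59, the lowest array median, 1071 of 7250 genes were higher and 1277 lower. The background therefore runs low for lists of mostly well-expressed genes. For 964 of the 975 and 1039 of the 1055, the 3 signals at 4 h lay wholly above or wholly below the 3 at 0 h. Such separation largely follows from the call itself and is no further support for it. The same holds for each called gene described below as separated or not overlapping between the times. The share of all 12361 genes that separated is not given here. The number of calls depended on which arrays entered. With the 6 arrays alone, 423 genes were higher (3.42%) and 335 lower (2.71%). Without replicate 3 at 4 h, 607 were higher (4.91%) and 592 lower (4.79%). Leaving out replicate 1, 2 or 3 at 0 h gave 752, 667 and 793 higher and 726, 707 and 736 lower genes, in that order. Leaving out replicate 2 at 4 h gave 742 higher and 636 lower genes. List counts in these fits are to be read beside these totals. Without replicate 1 at 4 h, 1149 were higher (9.3%) and 1471 lower (11.9%), and the probe sets called at least 2-fold apart went from 490 to 851. With the replicate number as a block, 1332 were higher (10.8%) and 1601 lower (13%).

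**Figure D1:**
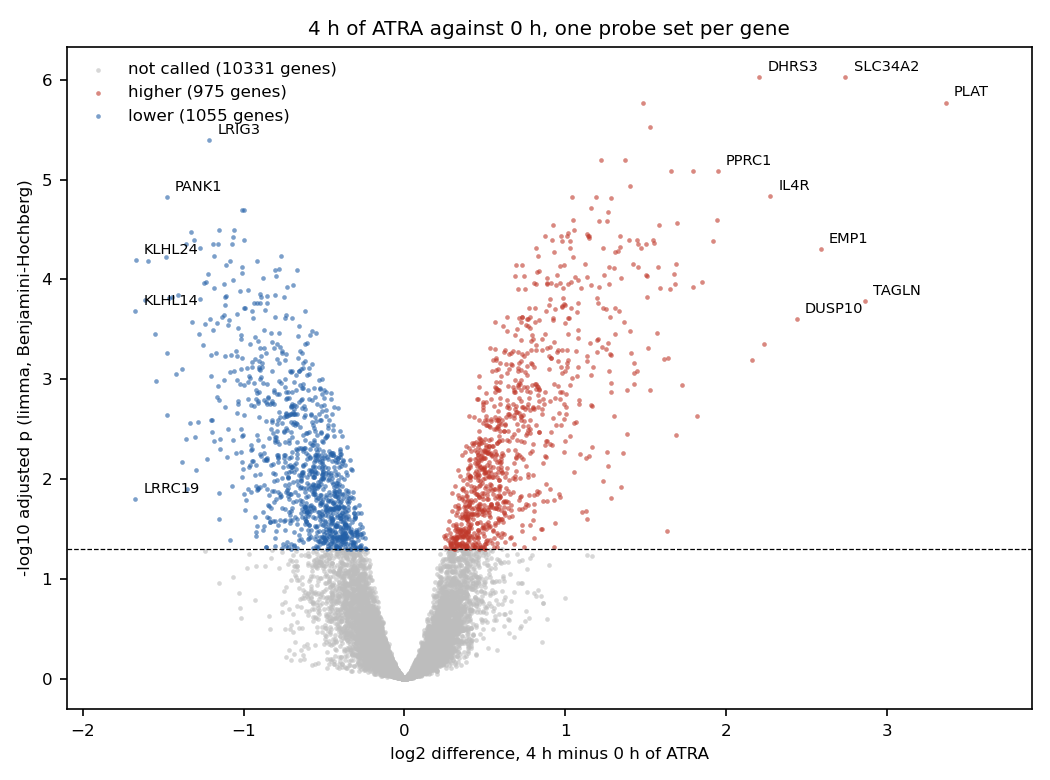
Log2 difference between 4 h and 0 h (horizontal) against the negative log10 of the adjusted p (vertical) for 12361 genes, 1 point per gene. The dashed line marks an adjusted p of 0.05; 975 genes above it were higher at 4 h and 1055 were lower, and PLAT lies farthest to the right at 3.36.

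The label of the cells was checked against markers. All 9 measured proximal tubule markers, among them SLC34A1, LRP2, CUBN and GGT1, had a mean at 0 h above 5.59, the lowest median of the 18 arrays. So had all 5 measured general epithelial markers. None of 4 endothelial markers did, 2 of 7 immune markers did (CD3E and AIF1, adjusted p = 0.886 and 0.128), and 3 of 8 fibroblast markers did (COL1A1, COL1A2 and COL3A1). So did 3 of 7 markers of the loop of Henle, distal tubule and collecting duct (SLC12A1, SCNN1A and ATP6V1B1). The bar is low, as 7250 of 12361 genes had a mean over the 18 arrays at or above it. The mean signal over the 9 proximal tubule markers was 9.38 to 9.49 on the arrays at 0 h and 8.94 to 9.19 at 4 h, with 4 members lower and 0 higher. Over the 5 epithelial markers it was 10.13 to 10.43 at 0 h and 10.57 to 10.96 at 4 h, with KRT8 (0.49) and KRT19 (0.57) called higher. Over 7 markers of the loop of Henle, distal tubule and collecting duct it was 6.12 to 6.15 at 0 h and 5.85 to 6.04 at 4 h, with 0 members called. Over the 8 fibroblast markers it was at most 4.98 at 0 h and at least 5.02 at 4 h, with COL1A1 called higher. In these 4 sets the 3 arrays of 1 time did not overlap the 3 of the other, while the endothelial and immune means overlapped. In RNA from whole cultures, a change in the share of cells and a change in RNA per cell cannot be told apart.

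The first genes to consider are those that make, bind and break down retinoic acid. CYP26A1, the cytochrome P450 that oxidizes retinoic acid, read 8.42, 8.42 and 8.84 on the 3 arrays at 0 h and 10.33, 10.20 and 10.52 at 4 h. It rose 3.47-fold (log2 difference 1.79 ± 0.16 SE, adjusted p = 8.2e-06). DHRS3, which reduces retinaldehyde back to retinol, read 7.82, 7.91 and 7.87 at 0 h and 10.29, 9.96 and 9.97 at 4 h, a 4.61-fold rise (2.20 ± 0.14, adjusted p = 9.43e-07). For both genes the groups were far apart, and for DHRS3 replicate 1 was the highest of the 4 h arrays, unlike for most large rises. RDH11, another retinaldehyde reductase, fell 1.75-fold (-0.81 ± 0.17, adjusted p = 0.00406). RBP4, the carrier of retinol in blood, rose 1.66-fold (0.73 ± 0.19, adjusted p = 0.0201), a call lost with the 6 arrays alone (adjusted p = 0.0509) and without any of 4 single arrays (adjusted p of up to 0.108). Of 22 measured genes of retinoid metabolism and transport, 3 were higher and 1 lower, with a median of 0.14. The other 18 lay between -0.27 (PNPLA4) and 0.31 (RBP7) on the log2 scale, including STRA6, the retinol uptake receptor (-0.09 ± 0.10, adjusted p = 0.692), CRABP2, a retinoic acid carrier in the cytosol (-0.15 ± 0.19, adjusted p = 0.721), and LRAT, which stores retinol as esters (0.29).

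Among the receptors, RARA read 7.64, 7.67 and 7.75 at 0 h and 8.07, 8.25 and 8.19 at 4 h. It rose 1.40-fold (0.49 ± 0.09, adjusted p = 0.00191), and the groups did not overlap, but the call was lost with the replicate block in the 6 arrays alone (adjusted p = 0.0543). RARB, which carries a well-known retinoic acid response element in other cells, read 6.35, 6.64 and 6.76 at 0 h and 6.26, 6.85 and 6.08 at 4 h, overlapping throughout (-0.18 ± 0.18, adjusted p = 0.621). RXRA, at a mean of 5.27 at 0 h, was below the lowest array median, which limits what its difference can show (-0.11 ± 0.17, adjusted p = 0.783). NR2F1 and NR2F2 encode the COUP transcription factors, orphan receptors that bind retinoic acid response elements. NR2F1 fell 2.01-fold (-1.01 ± 0.12, adjusted p = 8.57e-05) and NR2F2 1.64-fold (-0.72 ± 0.15, adjusted p = 0.00432). The coactivator NCOA2 fell 1.70-fold (-0.77 ± 0.13, adjusted p = 0.00109, or 0.0627 with the 6 arrays alone). Of 23 measured receptors and coregulators, 2 were higher and 6 lower. With the 6 arrays alone 1 was higher and 2 were lower, and 3 were lower without replicate 3 at 0 h or without replicate 2 at 4 h. TGM2, a transglutaminase raised by retinoic acid in many other cells, gave 0.11 ± 0.10 (adjusted p = 0.615). RARG and CDH1 were not analysed here.

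**Figure D2:**
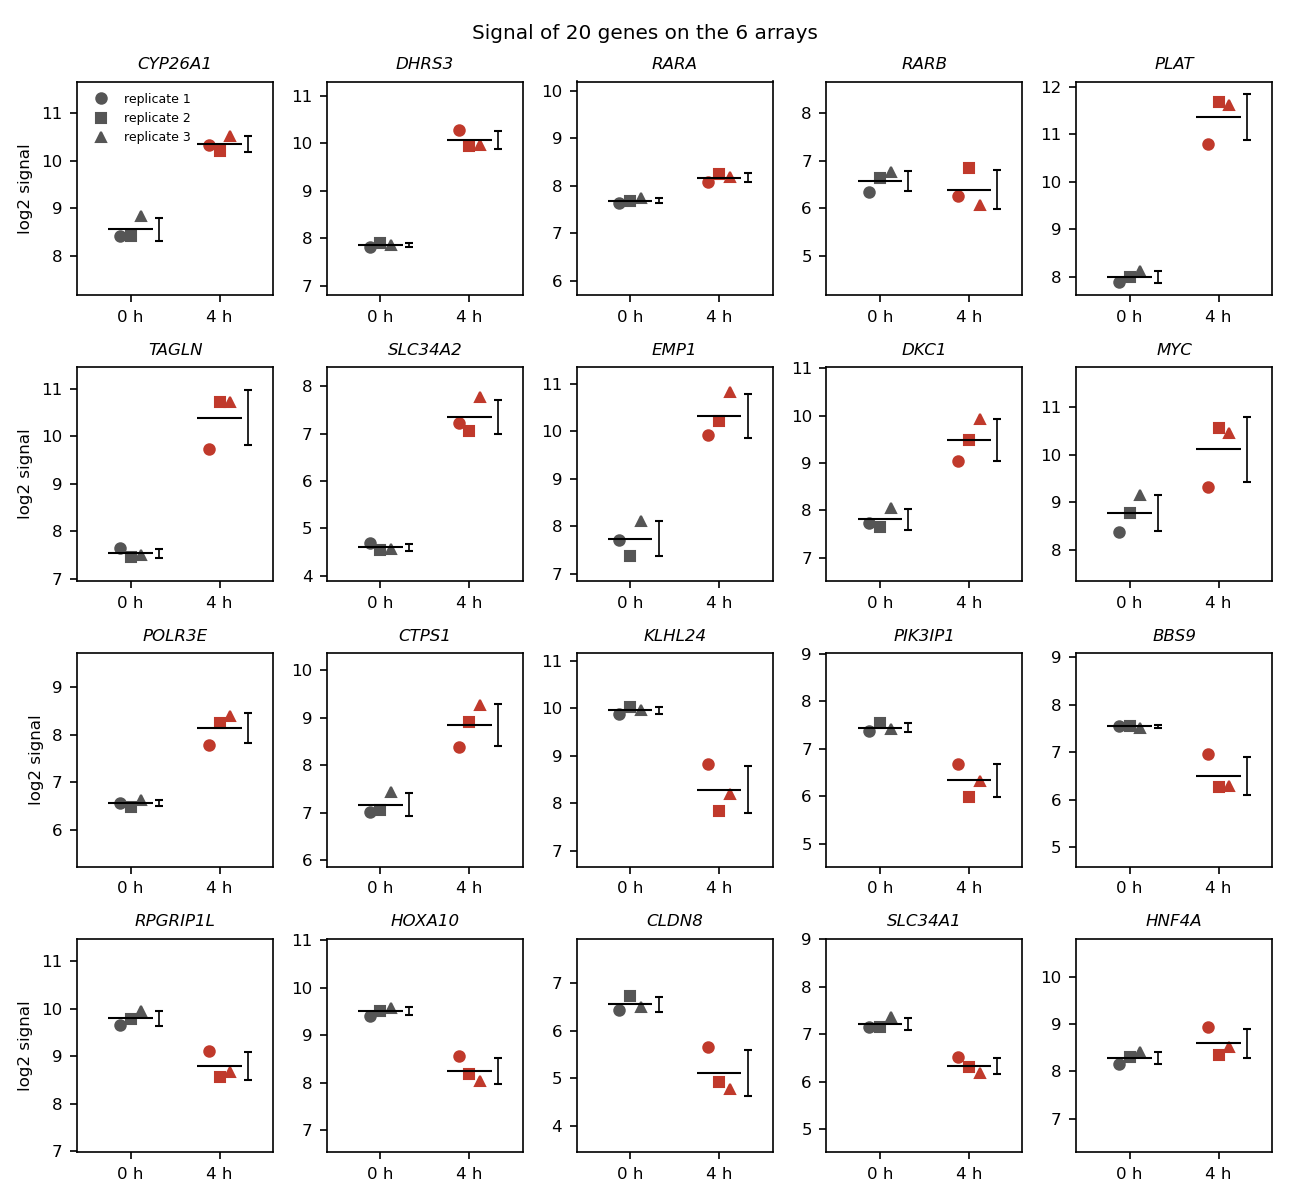
Log2 signal of 20 genes on the 3 arrays at 0 h (grey) and the 3 at 4 h (red), with symbols for replicates 1 to 3, a bar at the mean and an error bar of 1 SD. Every panel spans the same range of log2 units; CYP26A1 and DHRS3 are as high on replicate 1 at 4 h as on the other arrays of that time, whereas TAGLN and MYC are lowest there, and RARB overlaps between the times.

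The 5 largest rises among genes with a symbol were those of PLAT, TAGLN, SLC34A2, EMP1 and DUSP10. PLAT, tissue plasminogen activator, read 7.88, 7.99 and 8.13 at 0 h and 10.80, 11.67 and 11.61 at 4 h. It rose 10.3-fold (3.36 ± 0.24, adjusted p = 1.69e-06), the largest rise among the named genes. TAGLN, an actin-binding protein of smooth muscle also known as transgelin, read 7.65, 7.46 and 7.49 at 0 h and 9.73, 10.73 and 10.72 at 4 h, and rose 7.26-fold (2.86 ± 0.38, adjusted p = 0.000164). In both genes replicate 1 at 4 h was the lowest of its group, yet more than 2 log2 units above every array at 0 h. SLC34A2, a sodium-phosphate cotransporter best known from lung and intestine, read 4.69, 4.55 and 4.58 at 0 h and 7.22, 7.06 and 7.76 at 4 h, a 6.68-fold rise (2.74 ± 0.17). EMP1, a membrane protein of epithelia, rose 6.01-fold (2.59 ± 0.29). DUSP10, a phosphatase of stress-activated kinases, read 7.11, 6.81 and 7.40 at 0 h and 8.43, 10.16 and 10.04 at 4 h, and rose 5.42-fold (2.44 ± 0.34). Its 4 h arrays spanned more than 1.5 log2 units, with replicate 1 the lowest, but did not reach down to 0 h.

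The other genes among the 20 largest rises had differences from 1.69 to 2.27. They were the cytokine receptors IL4R and IL1R1, the urokinase PLAU, the mitochondrial coactivator PPRC1, the death domain receptor TNFRSF21, the phosphatase UBASH3B, the cationic amino acid carrier SLC7A2, the GABA receptor subunit GABRP, NT5DC3, the proteoglycan SDC4, the integrin ITGA3, CTPS1, which makes CTP, and EDN1, the vasoconstrictor endothelin. The GABRP probe set has the same values as another on every array, so its 3.52-fold rise rests on 1 measurement. A second probe set of ITGA3 also rose (1.76, adjusted p = 0.006). All 20 were called in each of the 6 fits that left out 1 array. They were picked for large, separated differences on these same arrays, so this is no independent support. Of all 2030 called genes, 58.1% kept their call without replicate 3 at 4 h and 92.8% without replicate 1 at 4 h, the lowest and highest shares.

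The largest falls were smaller than the largest rises. KLHL24, an adaptor of a ubiquitin ligase, read 9.89, 10.03 and 9.96 at 0 h and 8.82, 7.84 and 8.21 at 4 h, a 3.18-fold fall (-1.67 ± 0.19, adjusted p = 6.4e-05). KLHL14, of the same family, fell 3.19-fold (-1.67 ± 0.23, adjusted p = 0.000208). PANK1, the enzyme that commits pantothenate to coenzyme A, read 10.37, 10.42 and 10.46 at 0 h and 9.24, 8.85 and 8.73 at 4 h, a 2.79-fold fall (-1.48 ± 0.14, adjusted p = 1.49e-05). In all 3 genes the arrays at 0 h agreed within 0.2 log2 units and those at 4 h were spread more widely, with replicate 1 nearest to 0 h. PLCL1, related to phospholipase C, fell 3.02-fold, and the receptor for prostaglandin F, PTGFR, fell 2.93-fold. CDKL2, a kinase, fell 2.68-fold, RASGRP3, a Ras activator, 2.61-fold, and MID1, a microtubule-bound ubiquitin ligase, 2.56-fold. LRRC19 had the largest fall among genes with a symbol (-1.67 ± 0.43), but it read 6.54, 7.43 and 7.65 at 0 h, and its call (adjusted p = 0.0159) was lost without replicate 2 at 0 h, replicate 3 at 0 h or replicate 1 at 4 h (adjusted p of up to 0.074).

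**Figure D3:**
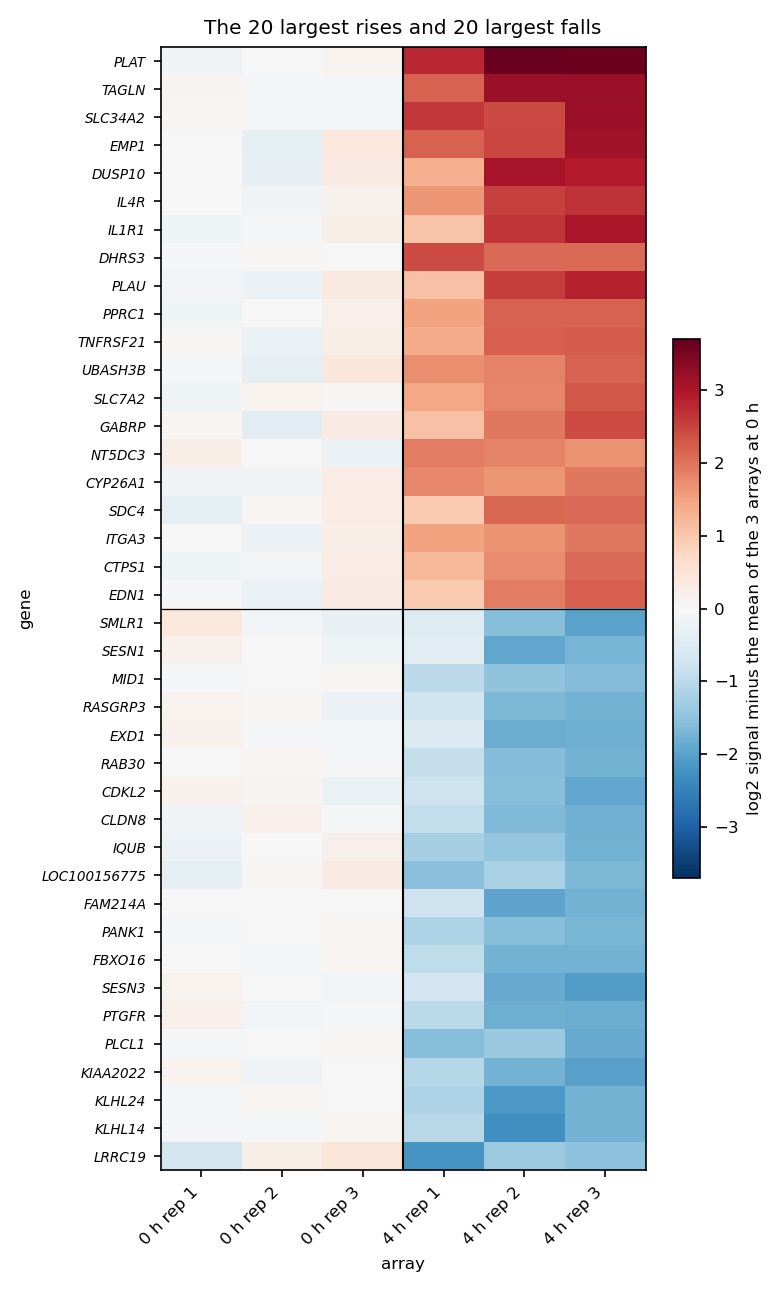
Log2 signal minus the mean of the 3 arrays at 0 h (colour) for the 20 largest rises and 20 largest falls (rows) on the 6 arrays (columns). The changes are paler on replicate 1 at 4 h in most rows, with DHRS3, NT5DC3, LRRC19 and CYP26A1 among the exceptions.

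Genes of ribosome biogenesis, the work of the nucleolus, were mostly higher. Of 62 measured, 47 were higher and 0 lower, with a median of 0.79 against 0.01 for all genes, and 61 had a positive difference. The count was 36 with the 6 arrays alone and 44 to 51 when single arrays were left out. DKC1, the pseudouridine synthase that modifies ribosomal RNA, read 7.74, 7.65 and 8.06 at 0 h and 9.04, 9.49 and 9.94 at 4 h, a 3.19-fold rise (1.68 ± 0.20, adjusted p = 8.9e-05). URB2, of the assembly of the large ribosomal subunit, read 5.73, 5.56 and 5.90 at 0 h and 6.88, 7.31 and 7.64 at 4 h, and rose 2.92-fold (1.55 ± 0.17, adjusted p = 4.03e-05). Neither gene overlapped between the times, which largely follows from the call. The methyltransferase NOP2 rose 2.83-fold, NOP56, a core protein of the box C/D particles, 2.73-fold and GAR1, a partner of DKC1, 2.52-fold. The list's median difference between arrays of the same number was 0.58 for replicate 1, 0.86 for replicate 2 and 0.93 for replicate 3.

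The machinery that transcribes ribosomal and transfer RNA was measured through 30 genes of RNA polymerases I and III, of which 8 were higher and 1 lower (median 0.16). POLR3E, a subunit of polymerase III, read 6.57, 6.48 and 6.61 at 0 h and 7.78, 8.25 and 8.39 at 4 h, a 3.00-fold rise (1.58 ± 0.16, adjusted p = 2.84e-05). POLR3D rose 2.38-fold and POLR1B, the second-largest subunit of polymerase I, 2.09-fold. MAF1, the repressor of polymerase III, fell 1.32-fold (-0.40 ± 0.10, adjusted p = 0.0164), a call lost with the 6 arrays alone (adjusted p = 0.0665) and without replicate 2 at 0 h or replicate 3 at 4 h. The list had 4 higher and 0 lower with the 6 arrays alone.

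MYC, a transcription factor that drives ribosome production in many cells, read 8.38, 8.79 and 9.16 at 0 h and 9.33, 10.57 and 10.46 at 4 h. It was called 2.54-fold higher (1.35 ± 0.33, adjusted p = 0.0119). Its groups did not overlap, but the lowest 4 h array was only slightly above the highest 0 h array. The call was lost with the 6 arrays alone (adjusted p = 0.0757) and without replicate 1 at 0 h, replicate 2 at 4 h or replicate 3 at 4 h (adjusted p of up to 0.0678). MAX, its partner, was called 1.28-fold higher (0.35 ± 0.09, adjusted p = 0.0126), and that call was lost with the 6 arrays alone (0.131) and without any of 3 single arrays. MXI1, which competes with MYC for MAX, read 8.34, 8.44 and 8.44 at 0 h and 7.42, 7.53 and 7.55 at 4 h, a 1.88-fold fall (-0.91 ± 0.15, adjusted p = 0.00079) called in each fit without 1 array. Of 14 measured genes of the MYC network 3 were higher and 1 lower, with a median of -0.05 and 8 negative differences. The list had 0 higher and 1 lower with the 6 arrays alone, and 1 higher without replicate 2 or 3 at 4 h. The lower count was 2 without replicate 1 at 4 h.

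Genes that act in translation had higher calls and 0 lower ones. Of 16 measured cytosolic aminoacyl-tRNA synthetases and their scaffold proteins, which load amino acids onto transfer RNA, 12 were higher and 0 lower, with a median of 0.57. The count was 4 with the 6 arrays alone and 4 without replicate 3 at 4 h. EEF1E1, a scaffold of the synthetase complex, rose 2.30-fold (1.20 ± 0.16), while CARS (1.69-fold), TARS (1.64-fold), FARSA (1.60-fold) and WARS (1.57-fold) rose by less. The calls on CARS, FARSA and WARS were lost without replicate 3 at 4 h (adjusted p = 0.0504, 0.0623 and 0.0635), and those on CARS and TARS with the 6 arrays alone (0.0649 and 0.0671). Of 41 initiation and elongation factors 14 were higher and 0 lower (median 0.15), with 4 higher in the 6 arrays alone and 8 without replicate 3 at 4 h. EIF4E, the protein that binds the mRNA cap, read 9.39, 9.35 and 9.32 at 0 h and 9.91, 10.13 and 10.27 at 4 h, a 1.68-fold rise (0.75 ± 0.10, adjusted p = 0.000126). EIF2S1 and EIF2S2, subunits of the factor that brings the initiator transfer RNA, each rose 1.68-fold. The EIF2S2 probe set shares its values with a second.

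Mitochondrial genes differed by role. None of 53 measured genes of the respiratory chain and ATP synthase was called in limma, in any of the fits, and their median was -0.04. Of 53 mitochondrial ribosomal proteins 5 were higher, close to the background of 7.89%, or 3 with the 6 arrays alone and without replicate 1 or 3 at 0 h or replicate 2 or 3 at 4 h, 9 without replicate 1 at 4 h and 11 with the replicate block. They included MRPS6 (1.84-fold) and MRPS30 (1.59-fold). Of 40 genes of mitochondrial import, chaperones and genome expression 10 were higher and 0 lower (median 0.15; 4 with the 6 arrays alone). PPRC1, a coactivator of nuclear genes for mitochondria, read 7.09, 7.24 and 7.47 at 0 h and 8.76, 9.44 and 9.44 at 4 h, a 3.85-fold rise (1.95 ± 0.17, adjusted p = 8.2e-06). PNPT1, a mitochondrial RNA exonuclease, and MTERF3, a regulator of mitochondrial transcription, rose 1.57-fold and 1.56-fold.

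Supply of building blocks was measured through 3 lists. Of 29 genes of nucleotide synthesis and one-carbon metabolism 11 were higher and 0 lower (median 0.15; 7 with the 6 arrays alone). CTPS1 read 7.01, 7.05 and 7.44 at 0 h and 8.38, 8.92 and 9.26 at 4 h, a 3.22-fold rise (1.69 ± 0.20). ADSS, on the path from IMP to AMP, read 9.24, 9.18 and 9.30 at 0 h and 10.48, 10.78 and 11.05 at 4 h, a 2.88-fold rise (1.53 ± 0.12, adjusted p = 2.96e-06). Both were separated between the times, as nearly all called genes were. UMPS, of pyrimidine synthesis, rose 1.86-fold, and PPAT, which opens purine synthesis, 1.84-fold. Of 21 amino acid transporters 7 were higher and 1 lower. The lower count was 3 with the replicate block, 2 without replicate 1 at 4 h, and 0 with the 6 arrays alone or without any other single array. SLC7A2 (3.60-fold) and SLC7A1 (2.98-fold) carry cationic amino acids, SLC1A4 (3.15-fold) and SLC1A5 (1.54-fold) carry small neutral ones and SLC38A1 (2.07-fold) carries glutamine. Of 14 genes of polyamine synthesis 4 were higher and 0 lower, led by AMD1, which makes decarboxylated S-adenosylmethionine (2.04-fold), and MTAP, which salvages methionine (1.81-fold). That count was 2 without replicate 3 at 4 h.

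Among lists for the handling of new RNA and protein, nuclear transport and chaperonin genes had far more higher than lower calls, and the proteasome had few of either. Of 34 nuclear transport genes 10 were higher and 1 lower (median 0.23), with 2 and 0 in the 6 arrays alone, and 4 higher without replicate 2 at 0 h or replicate 3 at 4 h. The lower count was 3 with the replicate block or without replicate 1 at 4 h, and 0 without any other single array. NUP188, of the nuclear pore, rose 1.66-fold and the importin IPO4 1.53-fold. Of 28 genes of the TRiC chaperonin, prefoldin and HSP90 cochaperones 10 were higher and 0 lower (median 0.22). That count fell to 3 with the 6 arrays alone, to 5 without replicate 1 at 0 h, replicate 2 at 0 h or replicate 3 at 4 h, and to 6 without replicate 2 at 4 h. DNAJC2, a ribosome-bound chaperone, read 7.39, 7.53 and 7.52 at 0 h and 8.28, 8.57 and 8.72 at 4 h, a 2.06-fold rise (1.05 ± 0.10, adjusted p = 2.53e-05). HSPH1, a nucleotide exchange factor of HSP70, rose 1.83-fold. Of 40 genes of the RNA exosome and mRNA decay 9 were higher and 5 lower, or 5 and 2 with the 6 arrays alone and 5 and 3 without replicate 2 at 0 h or replicate 3 at 4 h. The lower count was also 3 without replicate 1 or 3 at 0 h or replicate 2 at 4 h. The exosome subunits EXOSC4 (2.00-fold), EXOSC5 (1.94-fold) and EXOSC3 (1.50-fold) rose, while the deadenylation genes CNOT6L and PARN fell 1.51-fold and 1.45-fold. The call on CNOT6L was lost with the replicate block in the 6 arrays alone (adjusted p = 0.0542). The call on PARN was lost with the 6 arrays alone (adjusted p = 0.138) and without replicate 3 at 4 h (0.0552), and EXOSC5 without any of 3 single arrays (up to 0.085). Of 36 proteasome genes 2 were higher and 1 lower, below the background, or 7 and 2 with the replicate block and 4 and 2 without replicate 1 at 4 h. None was higher with the 6 arrays alone or without replicate 2 at 0 h, replicate 3 at 0 h or replicate 3 at 4 h, and 1 was without replicate 2 at 4 h.

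**Figure D4:**
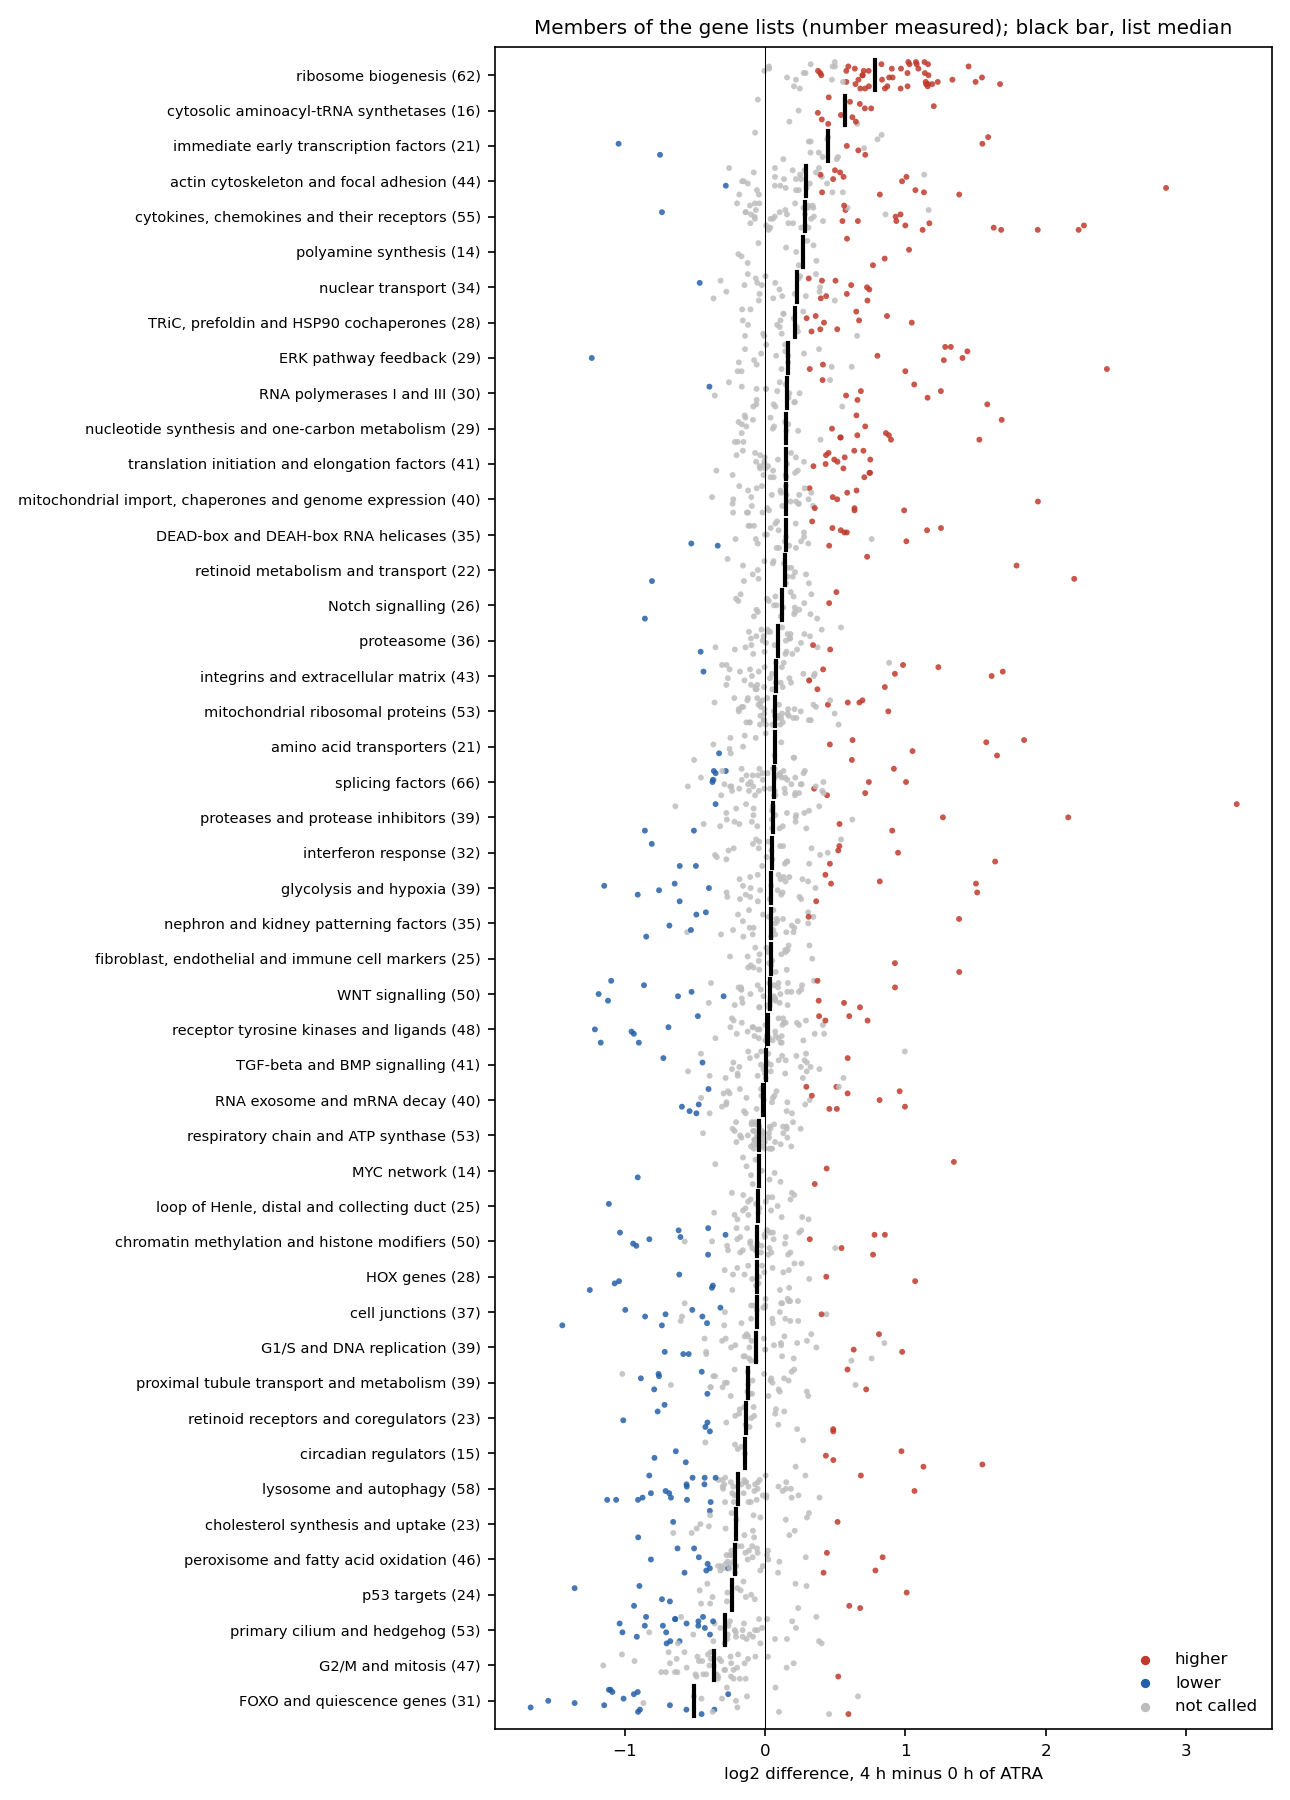
Log2 difference between 4 h and 0 h (horizontal) for each measured member of 47 gene lists, with the number measured in parentheses and a black bar at the list median. Red members were called higher, blue lower and grey not called; lists are ordered by median, from ribosome biogenesis (0.79) to FOXO and quiescence genes (-0.51).

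Genes of the actin cytoskeleton and of focal adhesions, the anchors of actin fibres to the matrix, were higher in 13 of 44 and lower in 1, with a median of 0.29. The count of higher genes was 7 with the 6 arrays alone and 21 with the replicate block, and the lower call was lost with the 6 arrays alone and without any single array but replicate 1 at 4 h. TAGLN led the list. VCL, which links integrins to actin, read 10.05, 9.90 and 9.87 at 0 h and 10.69, 11.23 and 11.30 at 4 h, a 2.19-fold rise (1.13 ± 0.14, adjusted p = 9.45e-05). ZYX, of the same structures, rose 2.10-fold and FHL2, a cofactor of adhesion signalling, 2.01-fold. ACTA2, smooth muscle actin, rose 2.61-fold (1.38 ± 0.28, adjusted p = 0.0035) from 3.34, 3.65 and 3.22 to 4.56, 4.86 and 4.94, all below the array medians. Of 25 measured markers of fibroblasts, endothelium and immune cells, ACTA2 and COL1A1 were the 2 called higher and 0 were lower. The part of other cell types in the rise of these genes was not tested.

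Of 43 integrin and matrix genes 9 were higher and 1 lower, or 6 and 0 with the 6 arrays alone and 11 and 2 with the replicate block. ITGA3, an integrin that binds laminin, read 8.86, 8.64 and 9.10 at 0 h and 10.35, 10.53 and 10.81 at 4 h, a 3.24-fold rise (1.69 ± 0.17). ITGB3, another integrin chain, rose 1.98-fold, CYR61, a matrix-bound signal protein, 3.06-fold, and LOXL4, which cross-links collagen, 2.35-fold. COL1A1 rose 1.90-fold through the probe set that represents it (0.93 ± 0.18, adjusted p = 0.00245), but its other probe set gave 0.12 (adjusted p = 0.597). Of 39 proteases and inhibitors 5 were higher and 3 lower, and 3 of the 5 lie on the plasminogen pathway. PLAU read 5.97, 5.85 and 6.41 at 0 h and 7.16, 8.63 and 8.93 at 4 h, a 4.47-fold rise (2.16 ± 0.34, adjusted p = 0.000646). Its receptor PLAUR was called 1.88-fold higher (0.91 ± 0.22, adjusted p = 0.0125), and this call was lost with the 6 arrays alone (0.0981) and without replicate 2 or 3 at 4 h. TIMP3, an inhibitor of metalloproteases, rose 2.41-fold. The list had 3 higher and 0 lower with the 6 arrays alone, and 7 and 6 with the replicate block. It had 0 lower without replicate 2 at 0 h or replicate 3 at 4 h and 1 without replicate 1 or 3 at 0 h or replicate 2 at 4 h.

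Cytokines, chemokines and their receptors were higher in 15 of 55 and lower in 1, with a median of 0.28 (10 higher with the 6 arrays alone). Receptors gave the largest differences. IL4R, the receptor chain for interleukins 4 and 13, read 6.65, 6.55 and 6.82 at 0 h and 8.30, 9.20 and 9.33 at 4 h, a 4.83-fold rise (2.27 ± 0.21, adjusted p = 1.48e-05). IL1R1, the signalling receptor for interleukin 1, read 4.71, 4.80 and 5.07 at 0 h and 5.91, 7.50 and 7.88 at 4 h, a 4.71-fold rise (2.24 ± 0.34, adjusted p = 0.000448). TNFRSF21 rose 3.85-fold and OSMR, the oncostatin M receptor, 3.21-fold, the latter also through a second probe set (1.64). FAS, a death receptor, fell 1.66-fold (-0.73 ± 0.13, adjusted p = 0.00133). Among the ligands, CXCL8, a chemokine for neutrophils, was called 3.10-fold higher (1.63 ± 0.48, adjusted p = 0.0333), but its lowest array at 4 h and its highest at 0 h both read 7.72. That call was lost with the 6 arrays alone (0.109) and without any of 4 single arrays (up to 0.18).

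Genes that damp the ERK and stress kinase pathways were higher in 10 of 29 and lower in 1 (6 higher with the 6 arrays alone). Beside DUSP10, DUSP5, a phosphatase of ERK in the nucleus, rose 2.72-fold (1.44 ± 0.24), SPRY1 2.65-fold (1.41 ± 0.22) and SPRED1, which restrains Ras, 2.50-fold (1.32 ± 0.15). MAP2K6, the kinase upstream of p38, read 6.74, 6.86 and 6.64 at 0 h and 5.87, 5.46 and 5.21 at 4 h, a 2.35-fold fall (-1.23 ± 0.15, adjusted p = 0.000105). Of 48 receptor tyrosine kinases and their ligands 4 were higher and 7 lower, or 0 and 4 with the 6 arrays alone and 8 and 9 with the replicate block. The 4 higher calls became 1 without replicate 2 at 0 h, replicate 2 at 4 h or replicate 3 at 4 h, and 2 without replicate 1 at 0 h. The falls included LRIG3, a membrane regulator of growth factor receptors (2.32-fold, -1.21 ± 0.10, adjusted p = 4.05e-06), MERTK (2.25-fold), the insulin receptor INSR (1.91-fold) and ERBB2 (1.87-fold). LRIG3 read 9.92, 9.92 and 9.76 at 0 h and 8.79, 8.52 and 8.64 at 4 h, with all arrays of a time close together. The 2 other probe sets of INSR fell too (-0.88 and -0.87). The call on ERBB2 was lost with the 6 arrays alone (adjusted p = 0.0528).

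Of 21 immediate early transcription factors 5 were higher and 2 lower, with a median of 0.45. ELF3, an epithelial factor, rose 3.01-fold (1.59 ± 0.20) and BHLHE40, a repressor with a role in the clock, 2.93-fold (1.55 ± 0.17). KLF9, of the same family as KLF10, fell 2.06-fold (-1.04 ± 0.18). The calls on EGR1 (1.64-fold, adjusted p = 0.0201), ETS2 (1.59-fold, 0.0233) and KLF10 (1.50-fold, 0.0361) were each lost without replicate 1 at 0 h, replicate 2 at 0 h, replicate 2 at 4 h or replicate 3 at 4 h (adjusted p of up to 0.167). The count of higher genes was 2 in each of those 4 fits.

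Genes tied to FOXO factors and to rest were lower in 17 of 31 and higher in 1, the lowest median of the lists at -0.51. The count of lower genes was 12 with the 6 arrays alone and 14 to 18 without single arrays. FOXO factors are held out of the nucleus by insulin and growth factor signalling, and their targets slow growth and division. After KLHL24, the largest falls were those of SESN3 (2.92-fold) and SESN1 (2.56-fold), which restrain the growth kinase mTORC1, PDK4, which blocks entry of pyruvate into the citric acid cycle (2.21-fold), and PIK3IP1, an inhibitor of PI3 kinase (2.16-fold). SESN3 read 10.94, 10.80 and 10.71 at 0 h and 10.11, 8.95 and 8.76 at 4 h. PIK3IP1 read 7.38, 7.54 and 7.40 at 0 h and 6.67, 5.99 and 6.33 at 4 h (-1.11 ± 0.15, adjusted p = 0.000179). Neither overlapped between the times, as is usual for called genes, and replicate 1 was nearest to 0 h in both. The call on SESN1 was lost with the 6 arrays alone (adjusted p = 0.0861). FOXO1 was at -0.21 and was not called. The count of higher genes was 3 with the replicate block or without replicate 1 at 4 h.

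Of 58 lysosome and autophagy genes 17 were lower and 2 higher, with a median of -0.19 (5 lower with the 6 arrays alone, 9 without replicate 3 at 4 h, and 11 without replicate 1 or 2 at 0 h). ULK1, the kinase that starts autophagy, read 9.58, 9.67 and 9.90 at 0 h and 8.97, 8.50 and 8.31 at 4 h, a 2.18-fold fall (-1.12 ± 0.16, adjusted p = 0.000226). MITF, a factor of the family that drives lysosomal genes, read 10.03, 9.92 and 9.98 at 0 h and 9.12, 8.79 and 8.84 at 4 h, a 2.09-fold fall (-1.06 ± 0.11), and its second probe set gave -1.07. In both genes every 4 h array was below every 0 h array, as for nearly all genes called lower. GABARAPL1, a protein of the autophagosome membrane, fell 1.87-fold, while the cathepsin CTSO rose 2.09-fold. Of 24 p53 targets 5 were lower and 3 higher, with 3 lower without replicate 2 or 3 at 4 h, 8 lower without replicate 1 at 4 h, and 3 lower and 1 higher with the 6 arrays alone. BBC3, which promotes cell death, fell 1.91-fold (-0.93 ± 0.16), and CDKN1A, the p21 inhibitor of cyclin-dependent kinases, 1.60-fold (-0.68 ± 0.17, adjusted p = 0.0133). The call on CDKN1A was lost without any of 3 single arrays (up to 0.0716), and PLK3, a kinase, rose 2.01-fold.

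Cell cycle genes gave few calls in the main fit, but the count for G2/M and mitosis depended strongly on the replicate block. Of 39 genes of G1/S and DNA replication 3 were higher and 3 lower, both near the background, or 3 and 8 without replicate 1 at 4 h, 6 and 5 with the replicate block and 2 and 0 with the 6 arrays alone. CDK6, a kinase of the G1 phase, rose 1.97-fold (0.98 ± 0.13) and TIPIN, of the replication fork, 1.76-fold (0.81 ± 0.11). Of 47 genes of G2/M and mitosis 1 was higher, BUB3 (1.44-fold, adjusted p = 0.0054, or 0.0558 with the 6 arrays alone), and 0 were lower. The list's median was nevertheless -0.36, and 43 members had a negative difference. With the replicate number as a block, 19 of the 47 were lower and 1 was higher, beside 13% and 10.8% of all genes. Between arrays of the same number the median difference was -0.19 for replicate 1, -0.40 for replicate 2 and -0.48 for replicate 3. Without replicate 1 at 4 h, 3 were lower.

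Genes of the primary cilium, the sensory rod that tubule cells carry on the side of the urine, were lower in 19 of 53 and higher in 0, with a median of -0.29. With the 6 arrays alone 7 were lower, and 25 were lower with the replicate block. BBS9, of the complex that sorts cargo into the cilium, read 7.56, 7.56 and 7.51 at 0 h and 6.97, 6.26 and 6.29 at 4 h, a 2.05-fold fall (-1.04 ± 0.19, adjusted p = 0.00165). RPGRIP1L, a protein of the gate at the base of the cilium, read 9.65, 9.80 and 9.96 at 0 h and 9.12, 8.56 and 8.68 at 4 h, a 2.02-fold fall (-1.02 ± 0.15, adjusted p = 0.000364). CC2D2A, which fell 1.88-fold, and TCTN2, called 1.81-fold lower, act at the same gate; the call on TCTN2 was lost with the 6 arrays alone (adjusted p = 0.0835). IFT81, of the transport trains, fell 1.80-fold (adjusted p = 0.0182), a call lost with the 6 arrays alone (0.112) and without replicate 1 at 0 h, replicate 2 at 4 h or replicate 3 at 4 h. The list had 13 lower members without replicate 2 or 3 at 4 h and 25 without replicate 1 at 4 h.

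WNT signalling genes went both ways: of 50 measured, 7 were lower and 5 higher. The lower ones were mostly at the membrane. FZD4, a WNT receptor, read 8.68, 8.65 and 8.74 at 0 h and 7.89, 7.43 and 7.21 at 4 h, a 2.28-fold fall (-1.19 ± 0.14, adjusted p = 5.78e-05). LGR4, the receptor for R-spondins, fell 2.17-fold (-1.12 ± 0.14), FZD3 2.14-fold and WLS, which escorts WNT proteins to the surface, 1.54-fold. The corepressor TLE4 fell 1.82-fold. Among the higher ones were LEF1, a DNA-binding partner of beta-catenin, which read 8.45, 8.37 and 8.62 at 0 h and 9.23, 9.39 and 9.60 at 4 h, a 1.90-fold rise (0.93 ± 0.11, adjusted p = 5.32e-05), and the receptor FZD5 (1.60-fold, adjusted p = 0.0526 with the replicate block in the 6 arrays alone). With the 6 arrays alone 2 were higher and 5 lower, while 2 were higher without replicate 2 at 0 h or replicate 3 at 4 h and 3 without replicate 1 at 0 h or replicate 2 at 4 h.

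HOX genes give cells their position along the body axis and respond to retinoic acid in embryos. Of 28 measured, 6 were lower and 2 higher, and 11 had a mean signal below the lowest array median. HOXA10 read 9.41, 9.50 and 9.58 at 0 h and 8.55, 8.17 and 8.03 at 4 h (-1.25 ± 0.16). HOXA9 and HOXA5, of the same cluster, gave -1.04 ± 0.14 and -1.07 ± 0.12. HOXD1 read 5.67, 5.66 and 5.81 at 0 h and 6.72, 6.76 and 6.87 at 4 h (1.07 ± 0.15). These 4 genes did not overlap between the times, which was so for nearly all called genes and adds no support. The other calls were small, and those on HOXD8 and HOXB7 (lower) and HOXB3 (higher) were each lost in 5 of the 6 fits without 1 array. The list had 1 higher and 3 lower in each of these fits but that without replicate 1 at 4 h, and 1 and 4 with the 6 arrays alone. Of 35 nephron and kidney patterning factors 2 were higher and 5 lower, with 1 and 1 in the 6 arrays alone, 1 and 2 without replicate 2 or 3 at 4 h, 1 and 3 without replicate 1 or 2 at 0 h and 1 and 4 without replicate 3 at 0 h. SOX9, a factor of tubule progenitors and repair, rose 2.61-fold (1.38 ± 0.24, adjusted p = 0.00127), and IRX3, a nephron segment factor, fell 1.80-fold (-0.85 ± 0.15).

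Of 50 chromatin methylation and histone modifier genes 9 were lower and 5 higher. The TET enzymes, which oxidize methylated cytosine, were all lower: TET1 by 1.89-fold (-0.92 ± 0.11, adjusted p = 6.47e-05), TET3 by 1.92-fold (-0.94 ± 0.21, adjusted p = 0.00654) and TET2 by 1.53-fold (-0.62 ± 0.13, adjusted p = 0.00404). The calls on TET3 and TET2 were lost with the 6 arrays alone (adjusted p = 0.0858 and 0.0518). TET1 read 9.20, 9.17 and 9.30 at 0 h and 8.47, 8.17 and 8.27 at 4 h. EZH1, a methyltransferase of the Polycomb complex, fell 2.05-fold (-1.03 ± 0.15), and KDM7A, a histone demethylase, 1.77-fold. KAT2A, a histone acetyltransferase, rose 1.71-fold, and SMYD5 1.72-fold. With the 6 arrays alone 2 were higher and 3 lower, and 3 were higher and 5 lower without replicate 2 at 0 h or replicate 2 at 4 h, and 3 and 6 without replicate 3 at 4 h.

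Transport genes of the proximal tubule were lower in 6 of 39 and higher in 2, with a median of -0.12. SLC34A1, the main phosphate cotransporter of the proximal tubule, read 7.15, 7.15 and 7.36 at 0 h and 6.52, 6.31 and 6.18 at 4 h (-0.88 ± 0.14, adjusted p = 0.000753). It moved opposite to its relative SLC34A2, and SLC20A1, a phosphate carrier of another family, rose 1.50-fold (0.59 ± 0.11). SLC13A1, for sulfate, was called 1.73-fold lower (adjusted p = 0.0102), a call lost without replicate 3 at 0 h or replicate 3 at 4 h, and SLC5A2, for glucose, 1.37-fold lower (0.0255), lost with the 6 arrays alone (0.119) and without any of 3 single arrays (up to 0.146). CYP24A1, which degrades vitamin D, rose 1.65-fold (0.0551 with the 6 arrays alone). HNF4A, a factor of the proximal tubule, read 8.16, 8.30 and 8.41 at 0 h and 8.93, 8.34 and 8.52 at 4 h, overlapping (0.31 ± 0.17, adjusted p = 0.305). The list had 1 higher and 2 lower members with the 6 arrays alone, 2 and 2 without replicate 3 at 4 h and 3 and 11 with the replicate block.

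Of 37 cell junction genes 9 were lower and 1 higher (median -0.06), or 5 and 0 with the 6 arrays alone. The higher call was also lost without replicate 2 at 0 h, replicate 3 at 0 h or replicate 3 at 4 h, while 2 were higher with the replicate block or without replicate 1 at 4 h. CLDN8, a tight junction protein of the distal nephron, read 6.43, 6.74 and 6.51 at 0 h and 5.66, 4.92 and 4.77 at 4 h (-1.44 ± 0.19). CDH11, a cadherin, fell 1.99-fold (adjusted p = 4.03e-05), PKP4, of the desmosome and adherens junction, 1.81-fold (-0.85 ± 0.11) and MARVELD3, of the tight junction, 1.66-fold (-0.74 ± 0.14). Of 25 genes of the loop of Henle, distal tubule and collecting duct 1 was lower, the potassium channel KCNJ16 (2.16-fold, -1.11 ± 0.20, adjusted p = 0.0511 with the replicate block in the 6 arrays alone). Of these 25, 17 had a mean signal below the lowest array median.

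Peroxisome and fatty acid oxidation genes were lower in 9 of 46 and higher in 4, with a median of -0.22. Only 3 of the 46 had a mean signal below the lowest array median. In the fit without probe sets of low signal 9 were lower and 4 higher, beside 1277 and 1071 of 7250 genes, so the lower count was near that background. With the 6 arrays alone 2 were called in each direction, and 3 were lower without replicate 3 at 4 h and 5 without any other single array but replicate 1 at 4 h. The higher count was 2 without replicate 1 or 2 at 0 h or replicate 2 or 3 at 4 h. PEX2, of peroxisome assembly, fell 1.76-fold (-0.81 ± 0.15), while ACSL5 and ACSL4, which activate fatty acids, rose 1.73-fold and 1.79-fold, the latter with an adjusted p of 0.0513 with the replicate block in the 6 arrays alone. Of 39 genes of glycolysis and hypoxia 6 were higher and 6 lower, or 3 and 4 without replicate 3 at 4 h and 3 and 2 with the 6 arrays alone. HK2, hexokinase, read 7.06, 6.30 and 6.62 at 0 h and 8.05, 8.18 and 8.27 at 4 h, a 2.84-fold rise (1.50 ± 0.18, adjusted p = 9.06e-05), and SLC16A1, a lactate carrier, rose 2.85-fold (1.51 ± 0.23). Of 23 cholesterol genes 1 was higher and 3 lower, or 2 and 8 with the replicate block, 1 and 6 without replicate 1 at 4 h and 0 and 2 with the 6 arrays alone. ABCA1, the cholesterol exporter, fell 1.87-fold (-0.90 ± 0.15) and MYLIP, which removes the LDL receptor, 1.57-fold (-0.65 ± 0.11).

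The mean signals of these genes at the other times are given as a description, since the genes were taken for their difference at 4 h. Of the 20 largest rises 16 had their highest mean of the 6 times at 4 h, and of the 20 largest falls 18 had their lowest there. IL4R had means of 6.67, 6.66 and 6.60 at 0, 0.5 and 1 h, 8.94 at 4 h, and 7.23 and 6.89 at 8 and 12 h. PPRC1 went through 7.27, 7.24, 7.40, 9.21, 8.11 and 7.64 over the same times. The exceptions among the rises were DHRS3 (11.02) and CYP26A1 (10.82), highest at 12 h, GABRP (9.46), highest at 8 h, and EDN1 (8.63), highest at 1 h. PLAT was at 10.41 by 1 h, before its mean of 11.36 at 4 h, whereas SLC34A2 was at 4.70 at 1 h and 7.35 at 4 h. Among the falls, KLHL24 had means of 9.96, 9.92 and 9.69 up to 1 h, 8.29 at 4 h and 9.44 and 9.55 at 8 and 12 h. PLCL1, at 4.77 at 4 h, remained at 4.61 and 4.74.

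**Figure D5:**
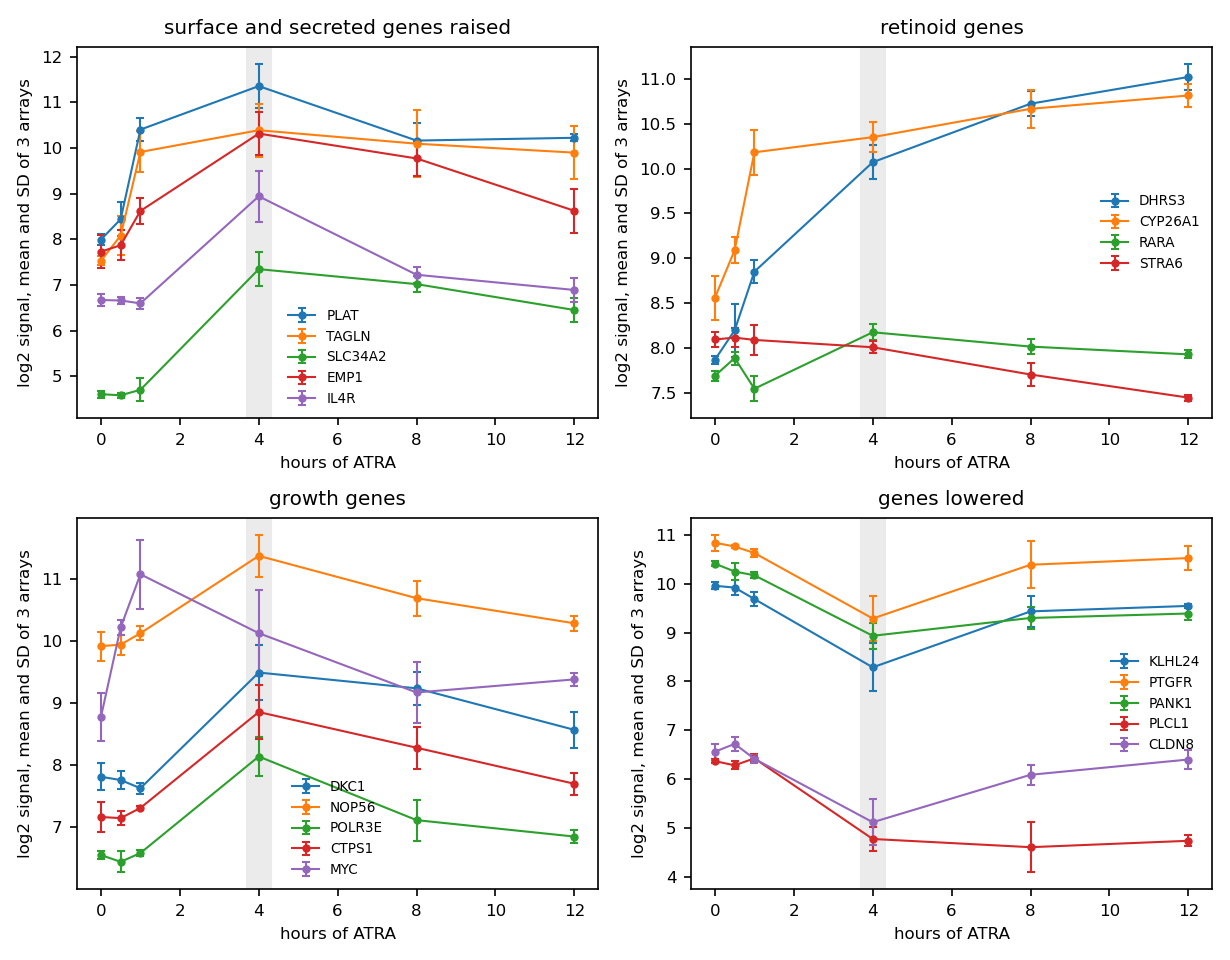
Mean log2 signal and SD of 3 arrays per time (vertical) against hours of ATRA (horizontal) for 19 genes in 4 panels, with 4 h shaded. IL4R, SLC34A2 and POLR3E sit near their 0 h means up to 1 h and peak at 4 h, CYP26A1 and DHRS3 are highest at 12 h, and KLHL24 and PTGFR are lowest at 4 h.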

How the data were processed

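The authors deposited 1 log2 signal per probe set and array from biotin-labeled RNA on Affymetrix porcine arrays. Transcriptome Analysis Console 2.0.0.9 was used, per the submitters' processing notes; the summarization and normalization are not given in the sources used here, and the values were taken as deposited. GEO's platform annotation gave 1 symbol for 13323 probe sets, several for 357 and none for 13878; Entrez identifiers of 12968 were found in the RefSeq gene table and 7 symbols were updated. A gene was its probe set with the highest mean over 18 arrays (902 of 12361 genes had several). limma 3.58.1 in R 4.3.3 fitted 1 mean per time to the 18 arrays (lmFit, eBayes, two-sided), with 12 residual and 3.34 prior degrees of freedom, and p adjusted by Benjamini-Hochberg over 27558 probe sets. On data simulated for 4 h against 0 h over 27558 probe sets, 11 of 50 shifts of 0.5, 37 of 50 of 1, 49 of 50 of 2 and 8 of 27358 unchanged probe sets were called. The simulated arrays were independent, with the same spread at every time and no outlying array. In the data the median SD was 0.139 at 0 h and 0.188 at 4 h, and more probe sets were called. The simulated rates therefore check the code and are not error rates of this comparison. Only 3 arrays per time limit the precision: the median SE was 0.149.

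Replicate numbers were checked for pairing: deviations of same-numbered arrays at 0 and 4 h from their means correlated at 0.421, 0.142 and 0.185, while replicates 2 and 3 also correlated across numbers (0.185 each way). Every same-number correlation exceeded 0.1, the rule set for pairing. Among the fits, however, the numbers entered only those with the replicate block. The correlations set replicate 1 apart but do not match replicates 2 and 3 by number. The main calls come from the fit without the replicate block. The fit with the block is given beside each list count above 0 that it moved by over 1.5 times. The labels call the replicates biological and give no batch.

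Genes named are the 20 largest called rises and falls with separated groups, up to 5 called members of each list in each direction, uncalled members of short lists, cell markers and a fixed set of retinoid genes. The comparison and its 48 lists were chosen with earlier results of these data known, so the lists give counts and no test. The planned promoter motif counts were not run.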

Additional observations from a re-analysis of the deposited data

How the results depend on the processing

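Scaling hardly moved the counts: 3625 probe sets were called after quantile normalization, 3478 with arrays centred on their median and 3793 with an intensity trend in the prior. Fitting the 6 arrays alone, with the spread taken from fewer samples, left 1378 probe sets (760 higher, 618 lower) and 758 genes, of which 751 were among the 2030 called with 18 arrays. With the replicate block in those 6 arrays, 1694 probe sets (923 higher, 771 lower) and 942 genes were called. With the replicate block in all 18 arrays, 5277 probe sets were called, 2821 of them lower, and every one of the 307 named genes kept its side of the threshold. When single arrays were left out, the probe sets called ran from 2113 to 4644, those higher from 1064 to 2119, those lower from 1049 to 2525, genes from 1199 to 2620 and probe sets at least 2-fold apart from 350 to 851. The lowest of these counts came without replicate 3 at 4 h and the highest without replicate 1 at 4 h; the cause was not tested. Lower counts also fell by over 1.5 times without replicate 2 at 0 h (1212) or replicate 2 at 4 h (1125). Of the 307 named genes, 301 were called, 207 of them in all 6 fits without 1 array and 158 in every fit, and none reversed under any setting. Low signal limits what can be called: with probe sets split by mean signal into 3 equal groups, 1.94% of the lowest, 12.4% of the middle and 24.5% of the highest group were called.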

Other observations

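Several lists outside the report held a few large differences. Of 15 circadian regulators 5 were higher and 3 lower, or 2 and 1 with the 6 arrays alone. Without replicate 2 at 4 h 3 were higher and 0 lower, without replicate 1 at 0 h or replicate 3 at 4 h 3 and 1, without replicate 2 at 0 h 3 and 2, and without replicate 3 at 0 h 4 and 1. Beside BHLHE40, PER2, a repressor of the clock, was called 2.19-fold higher (1.13 ± 0.25 SE, adjusted p = 0.00612, or 0.0911 with the 6 arrays alone) and ARNTL2, an activator, rose 1.96-fold (0.97 ± 0.16). Of 32 interferon response genes 5 were higher and 3 lower, or 2 and 0 with the 6 arrays alone and 9 and 4 with the replicate block. The higher count was 3 without replicate 2 or 3 at 0 h or replicate 3 at 4 h, and the lower count was 1 without replicate 2 at 4 h. GBP1, a GTPase induced by interferon gamma, read 6.22, 5.43 and 5.19 at 0 h and 7.42, 7.14 and 7.20 at 4 h, a 3.12-fold rise (1.64 ± 0.26, adjusted p = 0.000608), and IRF1, a factor of the same response, rose 1.93-fold (0.95 ± 0.15). Of 35 DEAD-box and DEAH-box RNA helicases 9 were higher and 2 lower, led by DDX21 (2.39-fold), DDX18 (2.23-fold) and DDX56 (2.01-fold), which act in the nucleolus; the list had 3 higher and 0 lower with the 6 arrays alone and 5 higher without replicate 3 at 4 h.

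Splicing factors and zinc finger genes were near the background of 7.89% higher and 8.53% lower. Of 66 splicing factors 6 were higher and 5 lower, with SNRPA1 (2.01-fold) and SRSF7 (1.89-fold) the largest rises. None of the 66 had a mean signal below the lowest array median. In the fit without probe sets of low signal 10 were higher and 7 lower, beside 1071 and 1277 of 7250 genes. The list had 13 and 8 with the replicate block, 3 and 0 with the 6 arrays alone, and 10 and 6 without replicate 1 at 4 h. It had 3 and 3 without replicate 1 at 0 h, 4 and 3 without replicate 2 at 0 h, 5 and 2 without replicate 3 at 0 h, 4 and 1 without replicate 2 at 4 h, and 3 and 2 without replicate 3 at 4 h. Of 152 genes with zinc finger symbols 10 were higher and 14 lower (median -0.07), or 3 and 3 with the 6 arrays alone. The lower count was 22 without replicate 1 at 4 h, 5 without replicate 2 at 4 h, 6 without replicate 1 at 0 h or replicate 3 at 4 h and 8 without replicate 2 or 3 at 0 h, and the higher count was 6 without replicate 3 at 4 h.

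Signalling through TGF-beta and BMP was below the background, with 1 higher and 2 lower of 41 and SMAD6, an inhibitor of the pathway, 1.50-fold higher. It had 3 and 4 with the replicate block, 6 and 4 without replicate 1 at 4 h, 2 and 2 without replicate 1 at 0 h and 1 and 0 with the 6 arrays alone. Notch signalling had 2 higher and 1 lower of 26, or 4 and 1 with the replicate block and 2 and 2 without replicate 1 at 4 h. It had 1 and 0 with the 6 arrays alone and without replicate 1 or 2 at 0 h or replicate 2 or 3 at 4 h.

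Probe sets without a single symbol also held large differences. Of 14235 such probe sets 684 were higher and 695 lower (9.69%). Probe set 15350995 went from a mean of 8.44 to 12.09 (3.65 ± 0.30, adjusted p = 6.32e-06), more than any named gene, and 15226206 from 5.67 to 8.84 (3.17 ± 0.49). Probe set 15330204 went from 9.56 to 7.48 (-2.08 ± 0.16), a larger fall than that of any named gene. They are unnamed here.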
